A study of Mus musculus with 2 samples.

Results

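Carboxylesterases and UDP-glucuronosyltransferases are enzyme families with which the intestinal epithelium breaks down and conjugates drugs, food compounds and lipids. The genes described here are the 9 members of these families that the deposited count tables hold, out of 1448 genes in all. They were taken by gene symbol and are Ces1d, Ces1f and Ces1g of the Ces1 family, Ces2a, Ces2e and Ces2g of the Ces2 family, and Ugt2a3, Ugt2b34 and Ugt2b5 of the Ugt2 family. All 9 had read counts at least 2-fold higher in AdipKO organoids than in WT organoids, against 35.3% of all listed genes. In whole organoids, more cells that carry such transcripts and more RNA per cell cannot be told apart.

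The RNA came from small intestinal organoids, which are cultures grown from crypts embedded in Matrigel and fed with 3 growth factors (EGF, Noggin and R-spondin). AdipKO organoids were derived from Adipfl/flpVilli-CreT mice, in which adiponectin is floxed and Cre is driven by the villin promoter, active throughout the intestinal epithelium. WT organoids were derived from Adipfl/fl mice, which carry the floxed gene without Cre. No source used here gives the age or number of the donor mice behind these 2 libraries. There was 1 library per genotype, so no test between genotypes was possible, no p-value is given, and no ratio below has a replicate check. Intervals are exact (Clopper-Pearson) 95% intervals that cover counting error only. They treat reads as independent, and since reads are not independent molecules, the true counting error may be larger.

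The tables hold a selected part of each library. Without a pseudocount, the log2 ratios have a gap from -1.04 to 0.96, so a gene enters the tables only if its counts differed by about 2-fold or more. Their counts add up to 689005 for AdipKO and 802995 for WT, which are not sequencing depths, so counts were compared without scaling. Adiponectin itself (Adipoq) was not listed, so the files cannot check the genotypes. AdipKO and WT below mean the libraries so labelled, and exchanged labels would turn every direction and rank given here. Of the marker genes, the stem cell markers Lgr5 and Olfm4 were lower in the library labelled AdipKO, with 3127 Lgr5 counts in AdipKO and 7858 in WT, and 34083 Olfm4 counts in AdipKO and 92810 in WT. None of 8 general epithelial markers, such as Epcam and Cdh1, was listed, so the labelled tissue could not be checked with them.

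Carboxylesterases are serine hydrolases of the endoplasmic reticulum that split ester bonds in drugs, environmental esters and stored lipids. In mice, Ces1 enzymes are best known from liver and adipose tissue and Ces2 enzymes from small intestine and liver. UDP-glucuronosyltransferases then attach glucuronic acid to lipophilic molecules, including steroids, bile acids and drug metabolites, which makes them water soluble and ready for export. In the gut both families are typical of absorptive enterocytes.

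The 9 genes lie in 3 clusters of paralogues on the mm10 genome (RefSeq, GRCm38.p6). The Ces1 cluster is on chromosome 8, where RefSeq places 8 protein-coding Ces1 genes within 360 kb on the minus strand. Ces1d (Entrez gene 104158) lies at chr8:93166072-93197804, Ces1f (Entrez gene 234564) at chr8:93256236-93279766 and Ces1g (Entrez gene 12623) at chr8:93302369-93337209. Each has 14 exons in its longest protein-coding GENCODE transcript. The Ces2 cluster, with 7 protein-coding genes within 286 kb, lies farther along the same chromosome on the plus strand. Ces2a (Entrez gene 102022) is at chr8:104734003-104741634, Ces2e (Entrez gene 234673) at chr8:104926260-104934672 and Ces2g (Entrez gene 72361) at chr8:104961596-104969537, with 12 exons each. The Ugt2 cluster on chromosome 5 has 10 protein-coding genes within 601 kb. Ugt2b34 (Entrez gene 100727) is at chr5:86889770-86906937, Ugt2b5 (Entrez gene 22238) at chr5:87124946-87140340 and Ugt2a3 (Entrez gene 72094) at chr5:87324972-87337195, all on the minus strand, with 5, 6 and 6 exons.

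The promoters of the 3 Ces2 genes are shown because these genes are paralogues in the same cluster and were all higher, and because they share short stretches of sequence. Each window is the RefSeq GRCm38.p6 sequence from 250 bases before to 50 bases after an annotated transcript start, on the plus strand. That start is the first base of the gene given above for Ces2a and Ces2e. For Ces2g it is chr8 position 104961718, which lies 122 bases inside the RefSeq gene record, and positions in Ces2g are counted from it. Capitals mark the runs of at least 8 bases that all 3 windows have in common.
Ces2a, chr8:104733753-104734052: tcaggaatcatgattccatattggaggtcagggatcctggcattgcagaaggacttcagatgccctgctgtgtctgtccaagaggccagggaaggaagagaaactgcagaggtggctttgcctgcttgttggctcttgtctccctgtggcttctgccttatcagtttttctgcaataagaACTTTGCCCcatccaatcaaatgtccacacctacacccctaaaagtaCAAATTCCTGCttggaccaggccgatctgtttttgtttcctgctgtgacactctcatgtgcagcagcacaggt
Ces2e, chr8:104926010-104926309: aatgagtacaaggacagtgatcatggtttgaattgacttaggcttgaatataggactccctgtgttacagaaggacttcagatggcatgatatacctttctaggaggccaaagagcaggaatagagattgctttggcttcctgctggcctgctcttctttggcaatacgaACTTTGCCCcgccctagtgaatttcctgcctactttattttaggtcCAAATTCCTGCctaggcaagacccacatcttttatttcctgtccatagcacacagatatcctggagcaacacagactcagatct
Ces2g, chr8:104961468-104961767: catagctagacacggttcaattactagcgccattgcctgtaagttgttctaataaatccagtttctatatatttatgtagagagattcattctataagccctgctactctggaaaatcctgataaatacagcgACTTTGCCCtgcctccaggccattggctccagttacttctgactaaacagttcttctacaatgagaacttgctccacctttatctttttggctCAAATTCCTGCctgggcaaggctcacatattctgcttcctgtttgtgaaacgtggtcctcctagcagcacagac

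Exactly 2 runs were common to the 3 Ces2 windows. The run ACTTTGCCC began at position -70 from the window's start site in Ces2a, -80 in Ces2e and -117 in Ces2g. It occurs on the gene's strand in 46 of 32851 promoter windows of the same length (0.140%). The longer run of 11 bases, caaattcctgc, began at position -23 in Ces2a, -34 in Ces2e and -24 in Ces2g. It occurs in 7 of the 32851 windows (0.0213%), which are these 3 and 4 of genes outside the family. Of the 6 Ces2 promoters in the RefSeq table, the other 3 (Ces2c, Ces2f and Ces2h) lack the longer run, and Ces2f has the shorter one. The runs were found by comparing the 3 windows with each other, so their presence in all 3 is how they were chosen.

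Promoter windows were given for 7 of the 9 genes, Ces1d and Ces1f being the others. Short binding motifs were searched on both strands of these windows, and few were found. The nuclear receptor motif AGGTCA occurred in Ces2a and Ugt2b5, 2 of 7, against 16.3% of all windows. The CDX motif TTTATGG occurred in Ces1g, against 2.75% of all windows. The antioxidant response element core TGACNNNGC (12.4% of all windows) and the HNF4 motif CAAAGTCCA (0.475%) had no match in the 7. A match is a run of letters and not a shown binding site, and a missing match says only that these letters are not in this window.

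The Ces1 family had the largest differences. Ces1d, a triacylglycerol hydrolase that mobilizes stored fat in mouse liver, had 877 counts in AdipKO and 219 in WT. The ratio was 4.0-fold (95% interval 3.45 to 4.67). Ces1f, a paralogue of Ces1d, had 1170 counts in AdipKO and 56 in WT, 20.9-fold higher (15.98 to 27.8). By log2 ratio of the library labelled AdipKO over that labelled WT, with a pseudocount of 1, Ces1f held place 2 of the 1448 listed genes. Ces1g, a lipid hydrolase whose loss gives fatty liver in mice, had 210 counts in AdipKO and 51 in WT, 4.12-fold higher (3.02 to 5.71). Summed over the family, there were 2257 counts in AdipKO and 326 in WT, a ratio of 6.92 (6.16 to 7.80). This sum rests largely on 1 gene, and without Ces1f the ratio was 4.03.

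The Ces2 genes carried most of the counts of the listed carboxylesterases. Ces2e had 9354 counts in AdipKO and 2274 in WT, 4.11-fold higher (3.93 to 4.31). It was the most counted of the 6 listed carboxylesterases in either library. Among all listed genes it stood in place 12 in the AdipKO library, against place 65 in the WT library. Ces2a, a hydrolase of di- and monoacylglycerols in mice, had 1507 counts in AdipKO and 563 in WT, 2.68-fold higher (2.43 to 2.95). Ces2g had 2846 counts in AdipKO and 1275 in WT, 2.23-fold higher (2.09 to 2.39), which was the smallest ratio of the 9 genes and close to the limit for entering the tables. The family summed to 13707 counts in AdipKO and 4112 in WT, a ratio of 3.33 (3.22 to 3.45).

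**Figure D1:**
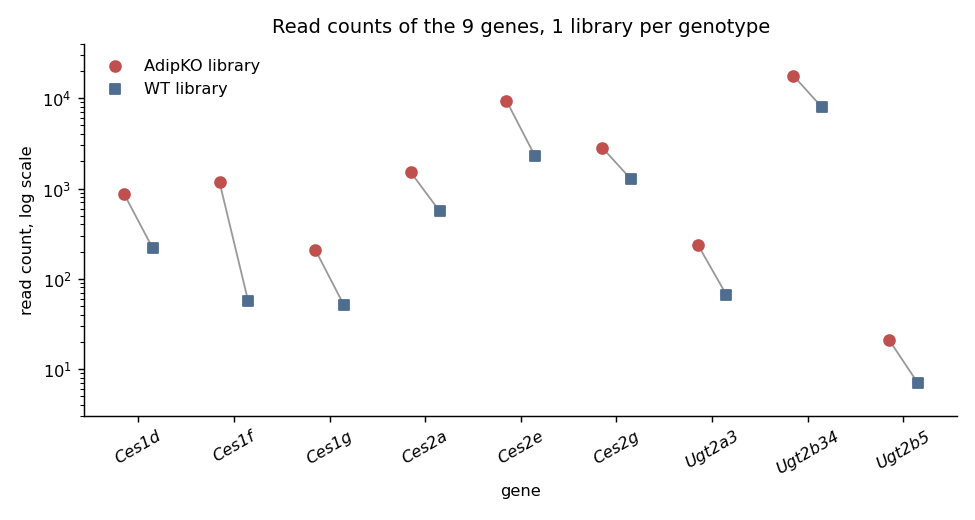
Read count (vertical axis, log scale) of each of the 9 genes in the AdipKO library (circles) and the WT library (squares), with a line joining the values of a gene. All 9 lines run downward from AdipKO to WT, most steeply for Ces1f with 1170 against 56 counts, and the counts range from 17795 for Ugt2b34 in AdipKO to 7 for Ugt2b5 in WT.

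A single gene dominated the counts of the 3 listed glucuronosyltransferases. Ugt2b34 had 17795 counts in AdipKO and 7913 in WT, 2.25-fold higher (2.19 to 2.31). Among all listed genes it stood in place 4 by count in AdipKO and place 14 in WT. Ugt2a3, whose human counterpart conjugates bile acids, had 239 counts in AdipKO and 66 in WT, 3.62-fold higher (2.75 to 4.83). Ugt2b5 was thinly counted, with 21 counts in AdipKO and 7 in WT, and its ratio of 3.0 had a wide interval (1.23 to 8.35). The 3 genes summed to 18055 counts in AdipKO and 7986 in WT, a ratio of 2.26 (2.20 to 2.32). Without Ugt2b34 that ratio was 3.56.

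Every one of the 9 genes was at least 2-fold higher in the AdipKO library on the log2(count + 1) scale. Among all listed genes, 35.3% were at least 2-fold higher and 62.2% at least 2-fold lower. The median log2 ratio of the 9 genes was 1.84 (range 1.16 to 4.36), against -1.15 for all 1448 genes. It was 2.02 in the Ces1, 1.42 in the Ces2 and 1.46 in the Ugt2 family. Among the 511 listed genes that were at least 2-fold higher, the median log2 ratio was 1.53, and 5 of the 9 genes lay above it: the 3 Ces1 genes, Ces2e and Ugt2a3. At a threshold of 4-fold with a pseudocount of 1, 3 of the 9 were higher (Ces1f, Ces1g and Ces2e), against 9.94% of all listed genes. Ces1d fell just short with a log2 ratio of 1.997. Without a pseudocount its ratio was 4.005, and with a pseudocount of 0.1 its log2 ratio was 2.001. Its place at this threshold thus depends on the pseudocount. The 9 genes together had 34019 counts in AdipKO and 12424 in WT, a ratio of 2.74 (2.68 to 2.80).

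**Figure D2:**
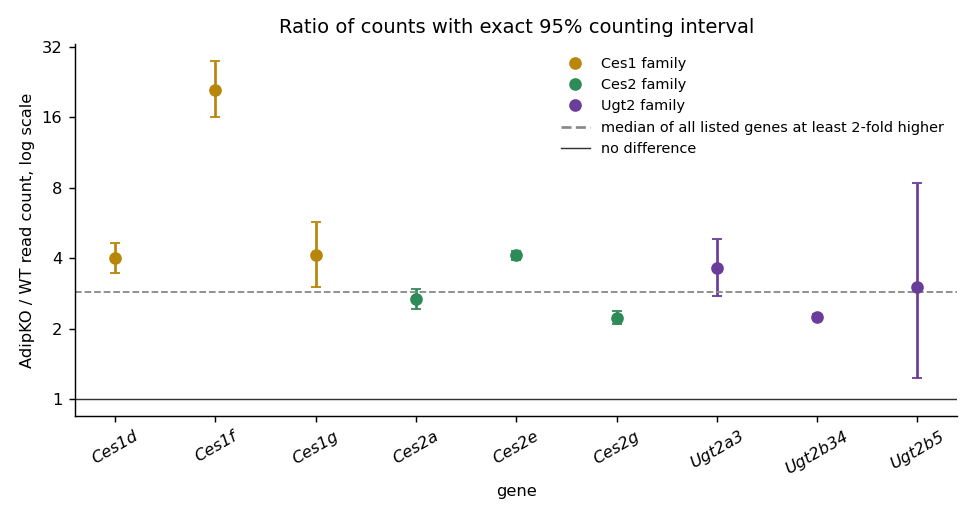
Ratio of AdipKO to WT read count (vertical axis, log scale) for each gene, with exact 95% counting intervals as error bars and colours for the 3 families. Ces1f at 20.9 stands above the other 8 genes, which lie between 2.23 and 4.12. The dashed line at 2.88 is the median, with a pseudocount of 1, of all listed genes that were at least 2-fold higher.

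The ratios differed among the 9 genes by more than counting error. Of 36 pairs of genes, 22 had a ratio of folds whose 95% interval lay above 1, and 14 had an interval that held 1. All 8 pairs with Ces1f were among the 22, and its fold exceeded that of the other genes by 5.07 times (Ces1g) to 9.36 times (Ces2g). Within the Ces1 cluster, Ces1g and Ces1d had a ratio of folds of 1.03 (0.726 to 1.48), so no difference was detectable at these counts. Within the Ces2 cluster the fold of Ces2e was 1.84 times that of Ces2g (1.70 to 2.00) and 1.54 times that of Ces2a (1.38 to 1.71). Ces2e and Ces1d, on distant clusters, had a ratio of folds of 1.03 (0.876 to 1.20). Ugt2b34 and Ces2g had a ratio of 1.01 (0.937 to 1.08). Of the 14 pairs with an interval holding 1, 7 involved the thinly counted Ugt2b5. These intervals compare 2 libraries and not the genotypes.

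The makeup of each family therefore differed between the libraries. Ces1f made up 51.8% of the Ces1 counts in AdipKO (49.8 to 53.9) and 17.2% in WT (13.2 to 21.7). Ces1d made up 38.9% in AdipKO (36.8 to 40.9) and 67.2% in WT (61.8 to 72.3), so the leading Ces1 gene was Ces1f in AdipKO and Ces1d in WT. In the Ces2 family, Ces2e held 68.2% of the counts in AdipKO (67.5 to 69) and 55.3% in WT (53.8 to 56.8). The share of Ces2g was 20.8% in AdipKO (20.1 to 21.5) and 31.0% in WT (29.6 to 32.4). Ugt2b34 held 98.6% of the Ugt2 counts in AdipKO and 99.1% in WT. These shares cover the listed genes of each family and do not depend on the scaling between libraries.

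**Figure D3:**
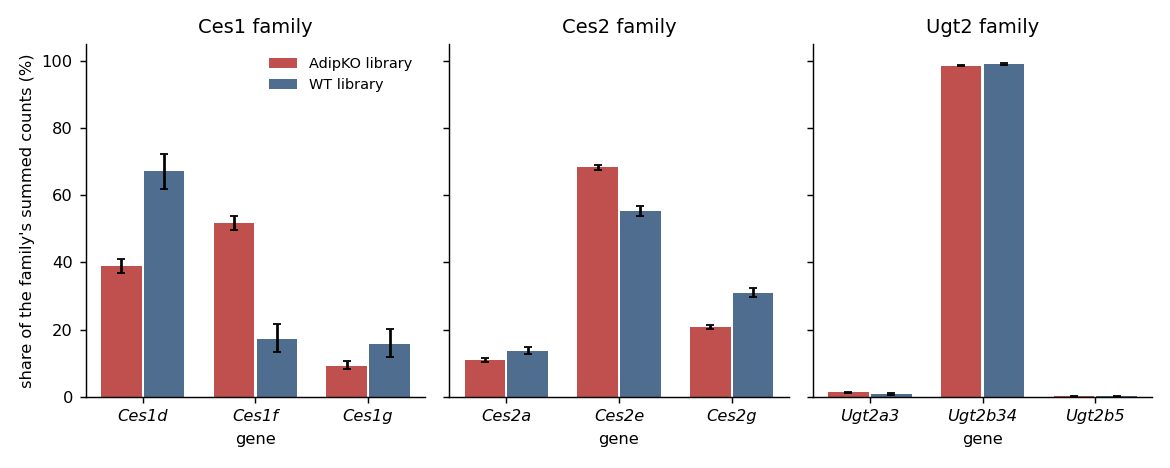
Share of each gene in the summed counts of the listed genes of its family (vertical axis, percent). The AdipKO library is to the left of the WT library, and error bars are exact 95% intervals. Ces1f takes 51.8% of the Ces1 counts in AdipKO and 17.2% in WT, whereas Ugt2b34 takes over 98% of the Ugt2 counts in both.

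Levels of different genes were compared per kilobase of transcript within each library. In the AdipKO library the order was Ugt2b34 with 4834 counts per kilobase, Ces2e with 3982, Ces2g with 995, Ces2a with 815, Ces1f with 607, Ces1d with 438, Ugt2a3 with 113, Ces1g with 87.9 and Ugt2b5 with 11.3. Each step of that order exceeded counting error at the transcript lengths used. Those lengths are medians over annotated transcripts, and the intervals leave out their uncertainty. For Ugt2b34 the length used was 3681.5 bases, against 4312 for its longest transcript, and its step to Ces2e was a ratio of 1.21. In the WT library the first 4 genes stood in the same order, from 2149 counts per kilobase for Ugt2b34 and 968 for Ces2e to 446 for Ces2g and 304 for Ces2a. Ces1d followed with 109, then Ugt2a3 with 31.2, Ces1f with 29.1, Ces1g with 21.4 and Ugt2b5 with 3.77 counts per kilobase. The steps between Ugt2a3 and Ces1f (ratio 1.07, 0.740 to 1.56) and between Ces1f and Ces1g (1.36, 0.915 to 2.03) did not exceed counting error. Ces1f thus stood in place 5 of 9 in AdipKO and place 7 in WT.

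Paralogues this close can share reads, so the transcripts were compared. Within a family, the longest transcripts of the 9 genes were 64.0% to 80.7% identical over their aligned bases, with Ces2a and Ces2e the closest pair. No window of 100 bases, the read length, of Ces1d, Ces1f, Ces1g, Ces2e or Ces2g occurred exactly in a transcript of another gene. For Ces2a, 200 of 1861 windows (10.7%) also occurred in the pseudogene Gm7208. For Ugt2b5, 434 of 1759 windows (24.7%) also occurred in Ugt2b38, so its few reads are uncertain. Ugt2a3 and Ugt2b34 shared 12 windows. The counts of all 9 genes were whole numbers, as they were for 85.6% of listed genes.

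The rest of both families was outside the tables. RefSeq holds 19 protein-coding carboxylesterase genes, of which 6 were listed. It holds 22 protein-coding genes with a Ugt symbol, including Ugt3a1, Ugt3a2 and Ugt8a, of which 3 were listed. None of the 9 Ugt1 genes and none of the Ces3, Ces4 and Ces5 genes was listed. Ces1e, which lies between Ces1d and Ces1f, and Ces2b and Ces2c, which lie between Ces2a and Ces2e, were not listed either. Since a gene with a small difference or no reads would be missing in the same way, nothing is said of their levels.

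Genes next to the clusters were not uniformly higher. Within 500 kb of the Ces1 genes no other gene was listed. Beyond the Ces2 cluster, Hsf4 and Nol3 were higher and 4931428F04Rik and Plekhg4 lower, at 308 to 408 kb from Ces2g. Beside Ugt2a3, at 188 and 230 kb, lie the sulfotransferase genes Sult1b1 and Sult1d1, which attach sulfate to phenols and catechols. Sult1b1 had 621 counts in AdipKO and 128 in WT, and Sult1d1 had 1359 in AdipKO and 315 in WT. Over whole chromosomes, 21 of 84 other listed genes on chromosome 8 (25.0%) and 29 of 88 on chromosome 5 (33.0%) were at least 2-fold higher in AdipKO.

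Among other enzymes of drug handling, the listed genes were mostly higher as well, but most genes of each group were not listed. Of 25 glutathione S-transferase genes 10 were listed, 9 at least 2-fold higher and none lower, with a median log2 ratio of 1.47. Of 50 carbonyl and quinone oxidoreductases 9 were listed, 8 higher and 1 lower (median 2.00). Of 99 cytochromes P450 12 were listed, 9 higher and 2 lower (median 1.40). The conjugating enzymes other than glucuronosyltransferases had 4 of 16 genes listed, all 4 higher, with a median of 2.19. These were 3 sulfotransferases and Acsm3. Among 15 transporters 4 were listed, with the efflux pumps Abcb1a and Abcc2 and the bile acid exporter subunit Slc51a higher and Slco2b1 lower. The differences between these groups and the 9 genes were not tested. Beside each of these counts stands the 35.3% of all listed genes that were higher.

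**Figure D4:**
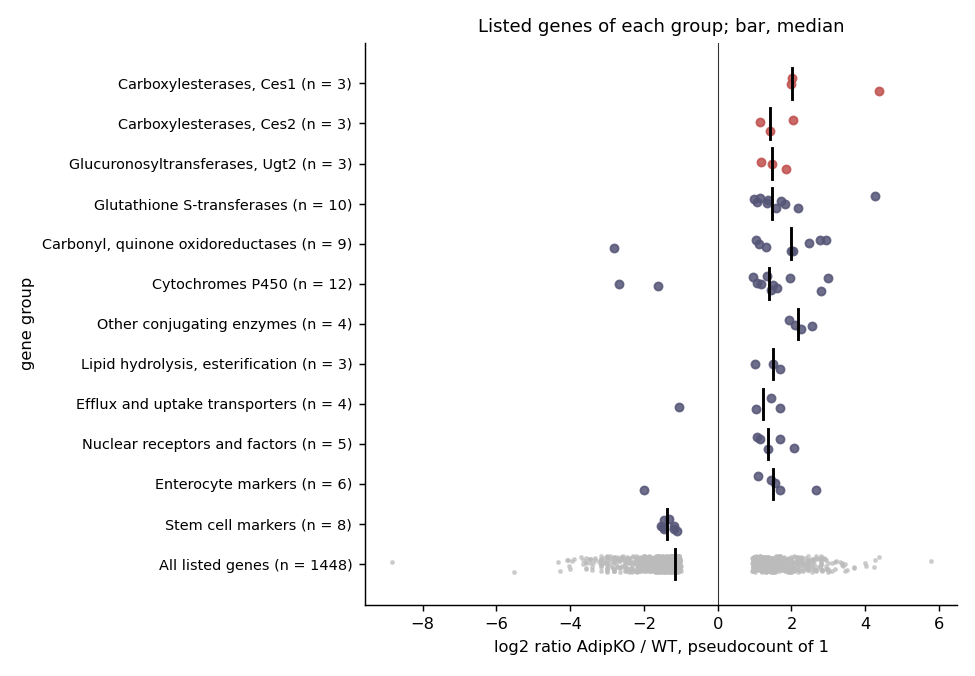
Log2 ratio of AdipKO over WT with a pseudocount of 1 (horizontal axis) for the listed genes of each group, 1 point per gene, with a bar at the median. All 9 carboxylesterase and glucuronosyltransferase genes lie to the right of 0, the 8 stem cell markers lie to the left, and all listed genes (bottom) have none near 0 because of how the tables were selected.

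Of the genes that regulate these enzymes or share their lipid substrates, few were listed. Among 25 nuclear receptors and transcription factors of drug and lipid metabolism, 5 were listed and all 5 were higher. Nr1i3, the xenobiotic receptor CAR, had 117.24 counts in AdipKO and 27.37 in WT, in fractional counts. The others were Ppargc1a, the bile acid receptor gene Nr1h4, Hnf4g and Pparg, with ratios from 2.09 to 3.25. The receptor genes Nr1i2 (PXR) and Ahr and the factors Nfe2l2 and Hnf4a were not listed. In the list of 20 genes of lipid hydrolysis and esterification, 3 were listed and all 3 were higher: Aadac, an esterase of the endoplasmic reticulum, Mogat2, which rebuilds diacylglycerol from absorbed fat, and Cideb. Aadac had 2916 counts in AdipKO and 903 in WT. Of 12 genes that supply or remove glucuronic acid, Entpd4 alone was listed, at 53.56 fractional counts in AdipKO and 0 in WT, and Ugdh and Ugp2, which make the donor UDP-glucuronic acid, were not.

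The listed markers of cell types differed in both directions between the libraries. Of 26 enterocyte markers 6 were listed, 5 at least 2-fold higher and 1 lower, summing to 6547 counts in AdipKO and 2125 in WT. Sis, the sucrase-isomaltase of the brush border, made up most of that sum with 4435 counts in AdipKO and 1377 in WT. Lct, the lactase gene, was the lower one, with 8 counts in AdipKO and 35 in WT. Of 12 stem cell markers 8 were listed, each of them lower under the AdipKO label, with 44589 counts in AdipKO and 118292 in WT. All 4 listed of 10 Paneth cell markers were lower, with 30249 counts in AdipKO and 64826 in WT. Of 10 hepatocyte markers 2 were listed, Alb with 155 counts in AdipKO and 55 in WT, and Trf with 42 in AdipKO and 134 in WT. The 2 listed of 7 immune markers, Itgam and Cd68, were higher with 292 counts in AdipKO and 134 in WT. Vim, the 1 listed of 8 fibroblast markers, was lower with 109 counts in AdipKO and 322 in WT, and Pparg, the 1 listed of 7 adipocyte markers, was higher. No listed marker was at 0 in either library. The part of these cell types in the result was not tested.

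Transcript base composition moved with the direction of the listed genes. The 9 genes had a transcript GC content between 39.9% (Ugt2b34 and Ugt2b5) and 50.8% (Ces2a). Listed genes were divided by GC content into 4 bins of equal size. Ces1g and the 3 Ugt2 genes were in the bin with the lowest GC content, where 57.3% of genes were at least 2-fold higher. Ces1d, Ces1f and the 3 Ces2 genes were in the next bin, where 32.7% were higher. In the 2 upper bins, which held none of the 9 genes, 30.3% and 22.3% were higher. By transcript length, 5 of the 9 genes were in the next to shortest of 4 bins (43.4% higher), 3 in the next (32.4%) and Ugt2b34 in the longest (22.0%). The part of base composition or length in the ratios was not tested.

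**Figure D5:**
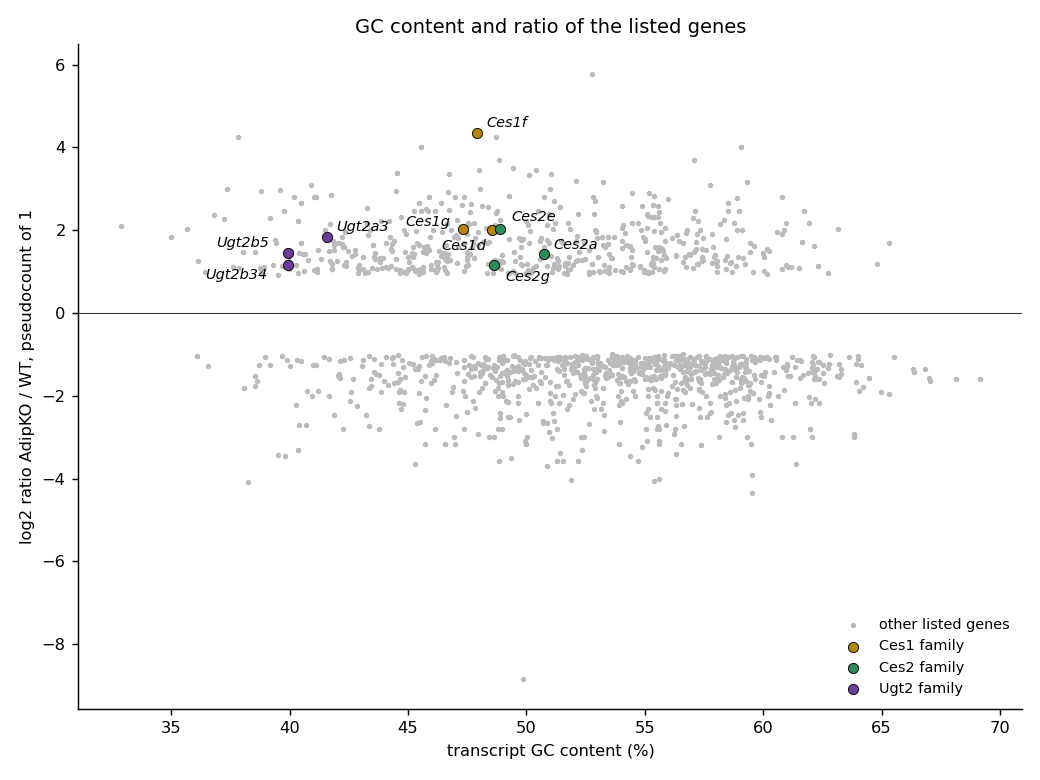
Log2 ratio of AdipKO over WT with a pseudocount of 1 (vertical axis) against transcript GC content in percent (horizontal axis) for listed genes with a protein-coding transcript. The 9 genes, coloured by family, lie between 39.9% and 50.8%, and grey points of other genes fill both directions over that range.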

How the data were processed

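AdipKO and WT organoids gave 1 RNA library each, sequenced by BGI with paired reads of 100 bases. The deposited values are unscaled estimated counts per gene, for the same 1448 genes in both libraries. Per the labels, the build was mm10. The study's methods name FPKM, which the files do not hold; no source used here gives the aligner, counting program, annotation or strand handling. The tables had been selected by a fold change of about 2, so library depth is unknown.

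Tables were joined on gene ID and the 9 genes taken by symbol. Ratios are AdipKO over WT on unscaled counts, because listed totals are not depths. Log2 ratios used a pseudocount of 1. A gene was called at 2-fold or more with at least 1 count in the higher library. Intervals were exact (Clopper-Pearson, scipy 1.17.1), and ratios of folds had exact conditional intervals. The count intervals and calls were tried on counts simulated with counting error only and without selection by fold. That bears on the calculation and not on the error in these data. Of the 1448 IDs, 1436 matched RefSeq (GRCm38.p6). Transcript length and GC content were medians over protein-coding GENCODE M21 transcripts, known for 1385 genes (95.6%). Transcripts were aligned globally with free ends in Biopython 1.88. Windows of 100 bases were matched on the same strand.

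The 9 genes, the gene lists and the motifs were chosen with earlier results of these data known. Named genes were all 9 members and, from each list, up to 4 with the largest log2 ratios. Hsf4, Nol3, 4931428F04Rik and Plekhg4 were named by position, and genes given as not listed, Lgr5, Pparg and Gm7208 as context. The runs shared by the Ces2 promoters were found after the sequences were seen. Protein sequences were not used here, and 1 factor and its motif are not reported here. Alternatives covered the scaling, pseudocount, fold threshold, low counts, whole counts, the leading gene and the mean.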

Additional observations from a re-analysis of the deposited data

How the results depend on the processing

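Of 171 alternative values, 146 stayed within their counting intervals or within 1.5 times a count, 25 moved and 0 changed sign. With listed totals equalized, the log2 ratios of the 9 genes move up by 0.21 to 0.22. The ratio of summed counts was then 8.07 for Ces1, 3.88 for Ces2, 2.63 for Ugt2, 4.19 for all carboxylesterases and 3.19 for all 9 genes, and the median log2 ratio was 1.64 for Ces2 and 2.23 for all carboxylesterases. Centring on the middle of the gap in the ratios, chosen after seeing the data, gave 2.33 for Ugt2 and 2.82 for all 9 genes. Without the gene with the most counts, the ratio was 4.03 for Ces1, 2.37 for Ces2, 3.56 for Ugt2, 3.05 for all carboxylesterases and 3.6 for all 9 genes. The mean log2 ratio was 2.79 for Ces1 and 2.17 for all carboxylesterases. At 4-fold, with the pseudocount kept at 1, 1 Ces2 gene, 0 Ugt2 genes, 3 carboxylesterases and 3 of all 9 genes were higher. Pseudocounts of 0.1 and 5 left all values within the limits given above. For a family median these limits are the medians of its genes' interval bounds. With a pseudocount of 5, the median log2 ratio was 1.17 for Ugt2 and 1.41 for Ces2, which reverses their order. That of Ugt2b5 was then 1.12. A threshold of 1.5-fold, whole counts and a minimum of 10 counts could move none, because all 9 genes already met them. The 146 values that stayed include those of these settings. No paired analysis was possible because each genotype had 1 library. Ugt2b5, with 21 counts in AdipKO and 7 in WT, is the gene whose ratio depth limits most.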
